A study of Mus musculus with 6 samples.

Results

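Pparg and 9 further genes that mark fat cells were followed in mouse temporomandibular joint tissue with and without Igf2bp2. The 10 members were taken by symbol from a table of 22032 genes: the transcription factors Pparg and Cebpa, the secreted products Adipoq, Cfd, Lep and Retn, the fatty acid carrier Fabp4, and the thermogenic genes Adrb3, Ucp1 and Cidea. All 10 were found. The samples were 3 libraries labelled Igf2bp2-KO (homozygous, Igf2bp2-/-) and 3 labelled Igf2bp2-WT, from littermates aged 10 weeks. No treatment is labelled, and the labels do not say which part of the gene is deleted, whether tissue of several animals was pooled, or which tissues around the joint were kept. The series title places PPARγ in a network with FOS and NFATC1 downstream of IGF2BP2, an RNA-binding protein, so the question is how Pparg and the fat cell program differ without it.

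PPARγ is a nuclear receptor that binds DNA as a heterodimer with a retinoid X receptor and, together with C/EBPα, drives and maintains the fat cell state. Mature fat cells secrete adiponectin (Adipoq), adipsin (Cfd), leptin (Lep) and, in mice, resistin (Retn), while brown and beige fat cells answer adrenergic signals through ADRB3 and make heat with UCP1. Fat cells lie in marrow and around joints, and in bone PPARγ is also known to act in osteoclast precursors. Several members are not specific to fat: Pparg and Cebpa are also expressed in myeloid cells, and Fabp4 in capillary endothelium and macrophages.

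Total counts ranged from 28551236 to 35094127 per library, of which mitochondrial genes took 85.3% to 90.8%, leaving 2625472 to 4899680 counts on nuclear genes. For the median gene, KO 1 and KO 3 were as alike as repeat draws of read pairs from 1 library, and so were WT 2 and WT 3. Each such pair was therefore added up and counted as 1 sample, leaving n = 2 samples per group. Separate animals are not named in the labels, and the p-values reflect the spread among these samples alone, which could be technical. The targeted gene kept some reads in KO, with 13, 14 and 10 Igf2bp2 counts in the KO libraries against 38, 20 and 24 in the WT libraries (edgeR FDR 0.00589). Levels are given as CPM, counts relative to library size, after TMM normalisation (edgeR's trimmed mean method), which sets most nuclear genes level between groups. Without that factor, on plain library totals that include mitochondrial genes, the median log2 change over all genes tested moves from -0.01 to 0.54, and results that depend on this are stated.

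Of the 10 members, 6 were lower in KO and none higher at a false discovery rate (FDR) under 0.05 by edgeR's quasi-likelihood test, against 8.48% of 14632 tested genes called lower and 9.15% called higher. Fabp4 and Cidea were tested and not called, and Lep and Adrb3 had too few counts to test. Ucp1 passed the filter on low counts through the WT samples alone, so its call follows in part from that filter. In 7 members, among them the untested Lep and Adrb3, all 3 KO libraries lay below all 3 WT libraries. Among tested genes, which Lep and Adrb3 are not, this held for 19.2%. For Adrb3 the margin was 0.0764 CPM in KO 1 against 0.0777 CPM in WT 3. Without scaling factors all KO libraries were below all WT libraries for 4 members (Adipoq, Cfd, Lep and Ucp1) and 3.96% of genes. Then 1 member (Fabp4) had all KO libraries above, as did 61.4% of genes. Calls on plain library totals stand beside 386 lower and 7345 higher of the 14632 tested genes. On plain library totals 3 members were lower (Adipoq, Cfd and Ucp1) and 1 higher (Fabp4), and without KO 2 the count of lower members was also 3. Leaving out KO 2, or WT 1, leaves a single summed sample in its group, which is then assumed to vary like the other. A call lost there is by itself no sign of a smaller change, which has to be read from the log2 fold change. The members were chosen with results of these data known, so these counts are a description. In bulk tissue, fewer cells of a type and less RNA per cell cannot be told apart.

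**Figure D1:**
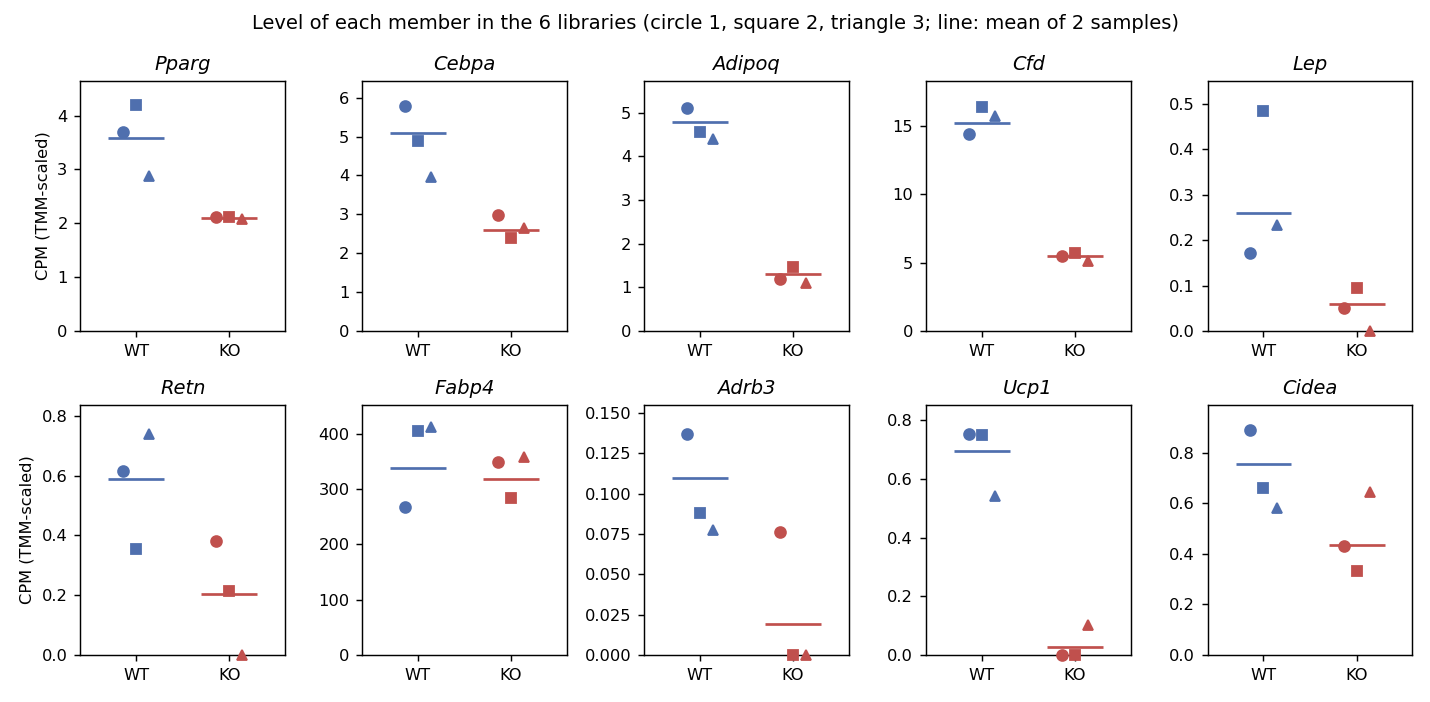
TMM-scaled CPM of each member (vertical axes, 1 scale per gene, starting at 0) in the 3 WT and 3 KO libraries; points are libraries 1 to 3 and lines are group means over 2 samples. Adipoq, Cfd and Ucp1 leave a wide gap between groups, whereas the KO values of Fabp4 lie within the WT range.

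Pparg was lower in KO, at about 0.6 of its WT level. The KO libraries had 83, 89 and 81 counts and the WT libraries 108, 95 and 74, or 2.11, 2.12 and 2.08 CPM against 3.69, 4.19 and 2.87 CPM. The KO libraries were almost equal and all lay below the lowest WT library, WT 3. The means were 2.11 ± 0.0136 CPM for KO and 3.59 ± 0.144 CPM for WT (± SD over 2 samples each), a log2 fold change of -0.77 (95% interval -1.16 to -0.37, edgeR FDR 0.00994). The SDs leave out the gap between WT 2 and WT 3, which are 1 sample, and an SD over 2 samples can fall below counting error. For the 253 KO counts together, 95% counting bounds were 223 to 286. Counted as read pairs, the ratio of KO to WT was 0.595 with a 95% counting interval of 0.464 to 0.762. Without KO 2 and in the DESeq2 Wald test the change was about as large (-0.77 and -0.76) but missed the threshold (FDR 0.0826 and 0.063). The call was also lost on plain library totals, where WT 3 at 2.28 CPM fell below the KO libraries at 2.54 to 2.58 CPM and the difference was -0.21 (FDR 0.376).

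Cebpa, which encodes C/EBPα, the partner factor of PPARγ in fat cells, was lower by a similar amount. It had 117, 101 and 103 counts in KO and 169, 111 and 102 in WT, or 2.98, 2.40 and 2.65 CPM against 5.78, 4.90 and 3.96 CPM. All KO libraries were below all WT libraries, although the WT libraries were spread more widely, with WT 1 highest. The log2 fold change was -0.94 (95% interval -1.34 to -0.54, edgeR FDR 0.00315), and it was not called without KO 2 (-0.84, FDR 0.0568) or on plain library totals (-0.39, FDR 0.114). Myeloid cells also express both factors, and among 12 macrophage genes 7 were lower in KO (3 on plain totals) and 1 higher (0 without KO 2), with summed levels of 67.0 to 68.7 CPM in KO and 99.7 to 120.2 CPM in WT. Whether this bears on Pparg or Cebpa was not tested.

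Pparg has 3 annotated start sites in the RefSeq promoter table (build GRCm38.p6), and counts per symbol cannot assign reads to one of them. Known promoters of the gene include one that gives an isoform enriched in fat cells. The sequences before 5 start sites are shown because these members have values discussed together: the most downstream Pparg start, Lep, Adipoq, Cfd and Ucp1. All are on the plus strand, 5′ to 3′, and end at the base before the start. Capitals mark the C/EBP-like motif TTGCNNAA for Pparg and Lep, CCAAT or its reverse complement ATTGG for Adipoq, and the nuclear receptor half-site AGGTCA for Ucp1, while Cfd has none of the motifs searched.
Pparg, chr6:115421816-115422065: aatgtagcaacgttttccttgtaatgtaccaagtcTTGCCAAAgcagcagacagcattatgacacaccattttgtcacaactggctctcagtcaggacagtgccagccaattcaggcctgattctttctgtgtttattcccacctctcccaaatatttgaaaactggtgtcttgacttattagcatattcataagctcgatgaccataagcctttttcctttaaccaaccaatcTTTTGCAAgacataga
Lep, chr6:29060121-29060220: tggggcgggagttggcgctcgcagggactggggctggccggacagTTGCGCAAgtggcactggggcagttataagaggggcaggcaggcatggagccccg
Adipoq, chr16:23146436-23146535: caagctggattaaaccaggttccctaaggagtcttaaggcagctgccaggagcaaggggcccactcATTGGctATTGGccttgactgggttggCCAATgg
Cfd, chr10:79890753-79890852: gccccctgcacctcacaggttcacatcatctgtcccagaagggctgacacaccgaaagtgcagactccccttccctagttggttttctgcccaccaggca
Ucp1, chr8:83290248-83290347: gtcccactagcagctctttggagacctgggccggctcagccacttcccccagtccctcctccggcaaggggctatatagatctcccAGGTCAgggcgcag
These motifs, TATANA and the paired half-site of PPAR response elements (AGGNCA repeated in the same direction with 1 base between, of which AGGTCA is 1 form) were searched on both strands in windows of 250 bases before to 50 after each start. The table holds such windows for 9 starts of 7 members. The C/EBP-like motif lies 215 and 16 bases before the Pparg start and 55 before that of Lep, where it is the palindrome TTGCGCAA. It occurs in 10.8% of all 32851 windows, the half-site in 16.3%, CCAAT in 37.4% and TATANA in 24.7%. None of the 9 windows holds the paired half-site, which is in 0.381% of all windows. A match of letters is no binding site, and a window without one says nothing of the factor.

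Adipoq and Cfd, both secreted by fat cells, were lower in KO under every alternative run. Adipoq, the gene of the insulin-sensitising hormone adiponectin, had 47, 62 and 43 counts in KO and 149, 103 and 113 in WT. In scaled terms the KO libraries held 1.20, 1.48 and 1.11 CPM and the WT libraries 5.10, 4.54 and 4.39 CPM, so the highest KO library lay far under the lowest WT library. It fell by 1.88 on the log2 scale (95% interval -2.31 to -1.45, edgeR FDR 2.25e-05). Cfd, the complement protease adipsin that fat cells secrete, had 216, 241 and 198 counts in KO and 422, 371 and 406 in WT. Its levels of 5.50, 5.74 and 5.10 CPM in KO and 14.4, 16.4 and 15.8 CPM in WT were likewise far apart. It fell by 1.47 (95% interval -1.74 to -1.20, edgeR FDR 3.39e-06). Both genes were called in every alternative run, and on plain library totals they fell by 1.33 and 0.92 (edgeR FDR 0.0001 and 5.15e-05).

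The hormone genes Lep and Retn were near the limit of detection. Lep, the satiety hormone of white fat, had 2, 4 and 0 counts in KO and 5, 11 and 6 in WT. All KO libraries were below all WT libraries, but this rests on about 3 read pairs in KO and 12 in WT, a ratio of 0.162 with a 95% counting interval of 0.0293 to 0.599, and the gene was not tested. Retn, the cysteine-rich hormone resistin, had 15, 9 and 0 counts in KO and 18, 8 and 19 in WT, and KO 1 overlapped WT 2. It was called lower (-1.52, 95% interval -2.57 to -0.48, edgeR FDR 0.0454), but not with 6 separate libraries (FDR 0.125). Leaving out KO 1, KO 2, KO 3 or WT 1 also ended the call (FDR 0.0595, 0.192, 0.214 and 0.113), in the Wald test (FDR 0.183) and on plain totals (FDR 0.117). The change was -2.38 without KO 1 and -0.96 without KO 3, and without WT 3 the gene had too few counts to test. Retnlg, a neutrophil relative of Retn, had at most 5 counts in a library. Because the rule for reads shared between relatives is not known, low counts of this family are uncertain.

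Fabp4, the cytosolic fatty acid carrier known as aP2, did not follow the adipokines. It was the most abundant member, with 13734, 11947 and 13898 counts in KO and 7823, 9157 and 10602 in WT. In scaled CPM these were 350, 284 and 358 in KO and 268, 404 and 412 in WT, so all KO libraries lay within the WT range, whose lowest value was WT 1. The difference was -0.08 (95% interval -0.53 to 0.37, edgeR FDR 0.837), an interval that lies above that of Adipoq. On plain library totals, however, all KO libraries were above all WT libraries, and Fabp4 was called higher (0.48, FDR 0.0317). Capillary endothelium expresses Fabp4 too, and of 10 endothelial genes 4 were higher in KO and 2 lower (1 without KO 2). Their summed level was 532.7 to 554.9 CPM in KO and 364.3 to 394.4 CPM in WT. Whether this bears on the Fabp4 level was not tested.

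**Figure D2:**
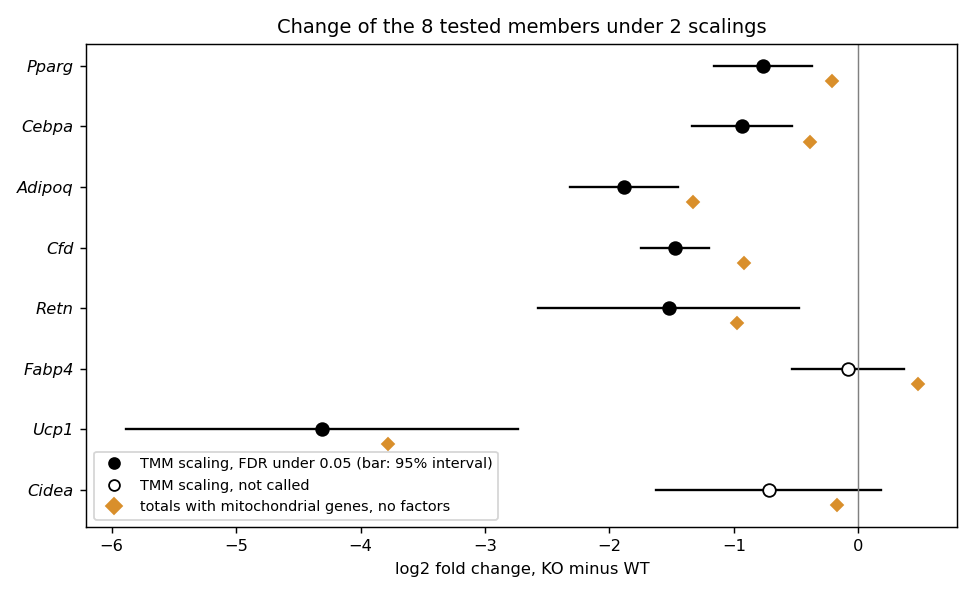
Log2 fold change (KO minus WT, horizontal axis) of the 8 tested members. Circles with 95% interval bars use TMM scaling, filled where the FDR was under 0.05, and diamonds use library totals with mitochondrial genes. Under either scaling Adipoq, Cfd and Ucp1 lie well below 0, while Fabp4 changes side. Ucp1 passed the filter on low counts through the WT samples alone.

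Of the thermogenic genes, Ucp1 was lower in KO and the others were not called or too low to test. Ucp1, the proton channel of brown fat mitochondria, had 0, 0 and 4 counts in KO and 22, 17 and 14 in WT, that is 2 read pairs against 27. All KO libraries were below all WT libraries, and the only KO reads came from KO 3. The fitted change was -4.31 (95% interval -5.88 to -2.74, edgeR FDR 0.000979), and the ratio of KO to WT from read pairs was 0.0479 with a counting interval of 0.00552 to 0.191. As Ucp1 passed the filter on low counts through the WT samples alone, its call follows in part from that filter. Without KO 3 no KO count is left, and the fitted value is then no bound. Adrb3, the adrenergic receptor of fat cells, had 3, 0 and 0 counts in KO and 4, 2 and 2 in WT, and no difference was detectable at this depth (ratio 0.323, counting interval 0.0292 to 2.25). Cidea, a lipid droplet protein of brown and beige fat, had 17, 14 and 25 counts in KO and 26, 15 and 15 in WT. Its scaled levels of 0.333 to 0.644 CPM in KO and 0.582 to 0.889 CPM in WT overlapped, with a difference of -0.72 (95% interval -1.62 to 0.18, edgeR FDR 0.276).

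Ratios between members within a library do not depend on scaling. Per 100 Fabp4 counts there were 0.342, 0.519 and 0.309 Adipoq counts in KO and 1.90, 1.12 and 1.07 in WT. For Cfd the same ratio was 1.57, 2.02 and 1.42 in KO and 5.39, 4.05 and 3.83 in WT. Both ratios were lower in every KO library, so the adipokines and Fabp4 changed unequally. Cfd per 100 Adipoq counts was 389 to 460 in KO and 283 to 360 in WT, higher in every KO library but by a smaller factor. Pparg moved the other way relative to Adipoq: there were 177, 144 and 188 Pparg counts per 100 Adipoq counts in KO and 72.5, 92.2 and 65.5 in WT. Every KO library was above every WT library, that is, KO had fewer Adipoq counts for each Pparg count. These ratios were not tested.

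**Figure D3:**
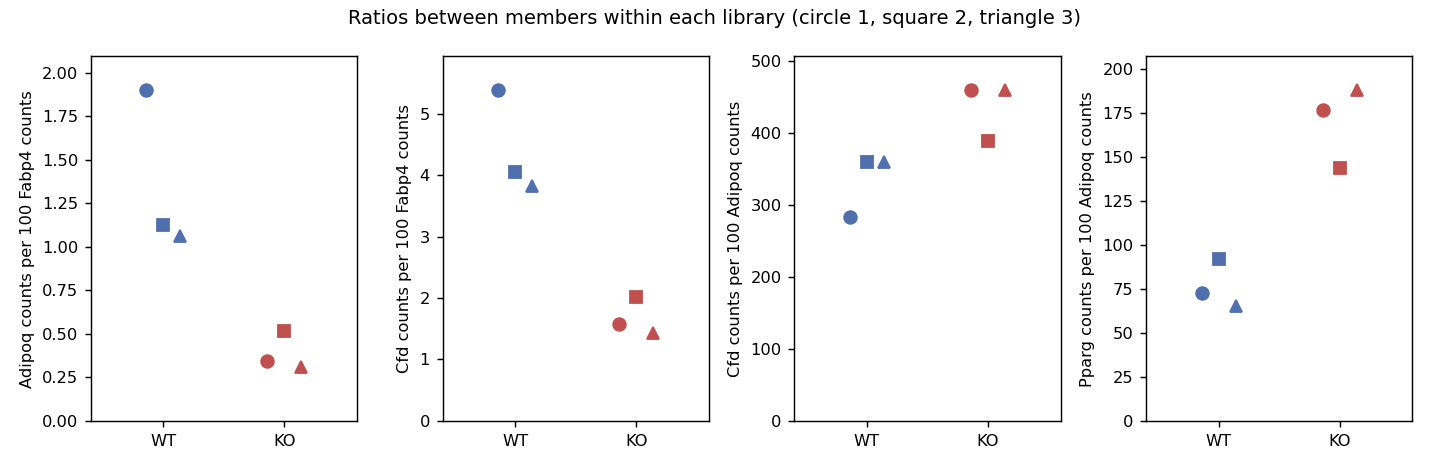
Counts of a member per 100 counts of another (vertical axes from 0) in each WT and KO library, with points for libraries 1 to 3. Adipoq and Cfd per Fabp4 are lower in all KO libraries, and Pparg per Adipoq is higher.

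Per kilobase of the longest coding transcript, the members covered a wide range of levels. In WT the order was Fabp4 with 377 CPM per kilobase, Cfd with 16.5, Adipoq with 3.70, Cebpa with 1.94, Pparg with 1.69, Cidea with 0.677, Retn with 0.515, Ucp1 with 0.426, Lep with 0.0801 and Adrb3 with 0.0393. Cebpa and Pparg, Cidea and Retn, and Retn and Ucp1 were neighbours whose library ranges overlapped, and the other neighbours were apart. In KO the first 3 stayed in the same order, but Adipoq at 1.02 CPM per kilobase overlapped Cebpa at 0.994, which overlapped Pparg at 0.992. Ucp1 at 0.0156 overlapped Adrb3 at 0.00687. The leading fat cell hormone genes were therefore low in both groups relative to Fabp4, and in KO the library ranges of Adipoq and Cebpa were no longer apart.

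Lists of related genes without the members give the changes beside them. Over all genes tested the median change was -0.01, with 8.48% called lower and 9.15% called higher. On plain totals 386 of 14632 tested genes were lower and 7345 higher. A list with calls near these shares does not stand out from other genes. The first list holds 17 other transcription factors of fat cell formation, of which 4 were lower and 2 higher, with a median of -0.14. The higher ones were Klf15 (1.47, edgeR FDR 3.89e-06) and Cebpd (1.14, FDR 0.00218), an early factor of fat cell formation. Both are known to be induced by glucocorticoids. The lower ones were Egr2 (-0.93, FDR 0.000263), an early activator of the program, Nr3c1, the glucocorticoid receptor (-0.61, FDR 0.00288), Ebf2, a determinant of brown fat precursors (-0.78, FDR 0.0244), and Rxra, the partner of PPARγ (-0.37, FDR 0.0436). Rxra and Ebf2 were named after their values were seen. Without KO 2 only 2 of these factors were lower, as Rxra (FDR 0.373) and Ebf2 (FDR 0.179) were lost. Rxra also missed the threshold when KO 1, WT 1 or WT 2 was left out (FDR 0.142, 0.111 and 0.0815), and Ebf2 without KO 3 or WT 3 (FDR 0.0869 and 0.0513). On plain totals 1 factor was lower and 7 higher, with Nr3c1 at -0.06 (FDR 0.729), Ebf2 at -0.22 (FDR 0.429) and Rxra at 0.18 (FDR 0.279).

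Among 10 inhibitors of fat cell formation 3 were lower and 1 higher, with a median of -0.42. Gata2, which holds precursors back, was higher (0.67, edgeR FDR 0.0011). Dlk1, the precursor protein Pref-1, was lower (-1.19, FDR 0.0137), as were Zfp521 (-0.69, FDR 0.014), a repressor of commitment, and Klf2 (-0.44, FDR 0.0211), which represses Pparg transcription. None of these 3 was called without KO 2 (FDR 0.0613, 0.14 and 0.113) or on plain totals, where Klf2 stood at 0.10 (FDR 0.521). Without WT 1 or WT 3 only 1 was lower, as Dlk1 (FDR 0.102 and 0.0593) and Zfp521 (FDR 0.0594 and 0.105) were lost.

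White fat cell genes split, so the list as a whole did not follow Adipoq. Of 28 listed 26 were tested, 7 lower and 8 higher, with a median of -0.25. The droplet coat gene Plin4 rose by 2.99 (edgeR FDR 4.18e-09), the fatty acid transporter Cd36 by 1.41 (FDR 6.49e-06), the lipase Lpl by 1.37 (FDR 2.29e-05) and the lipogenic regulator Thrsp by 1.04 (FDR 2.3e-05). Plin4, Cd36 and Lpl are also expressed in skeletal muscle. Of 10 fast muscle genes 4 were higher in KO (1 without KO 2), with a summed level of 6485 to 7434 CPM in KO and 4402 to 5975 CPM in WT, and their part in these increases was not tested. Lipe and Pnpla2, the main lipases of fat cell lipolysis, and the glucose transporter Slc2a4 were higher too (0.89, 1.04 and 0.69, FDR 0.00669, 3.01e-05 and 0.00211). Whether muscle or fat cells gave these increases was not tested either. Lipe, Pnpla2, Slc2a4 and the lower genes that follow were named after their values were seen. Cidec, which enlarges the single droplet of white fat cells, had 70, 73 and 83 counts in KO and 114, 81 and 87 in WT, a change of -0.98 (edgeR FDR 0.00272). Pck1, which feeds glycerol synthesis in fat, fell by 1.13 (FDR 0.00038). Plin1, the defining droplet coat protein of fat cells, was barely detected, with 6, 10 and 11 counts in KO and 10, 11 and 20 in WT, and it was not called (-1.16, FDR 0.149). Without KO 2 the list had 4 lower genes, and on plain totals 1 lower and 10 higher, with Cidec at -0.43 (FDR 0.0914).

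Known PPARγ targets went in both directions while Pparg itself was lower. Of 17 listed 3 were lower and 6 higher (2 and 11 on plain totals), with a median of 0.07. This list shares Cd36, Lpl, Plin4, Plin1, Cidec, Pck1, Aqp7 and Lipe with the previous one. Of these, Cd36, Lpl and Plin4 are also expressed in skeletal muscle, and whether muscle bears on the higher targets was not tested. Pdk4, which blocks pyruvate oxidation, rose by 3.32 (edgeR FDR 1.56e-09) and Angptl4, a secreted inhibitor of lipoprotein lipase, by 1.47 (FDR 2.08e-05). Fabp5, the close relative of Fabp4, named after its values were seen, was lower, with 324, 290 and 343 counts in KO and 366, 425 and 455 in WT (-0.99, FDR 0.00472). Fabp5 thus differed where Fabp4 did not, and the difference between them was not tested.

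**Figure D4:**
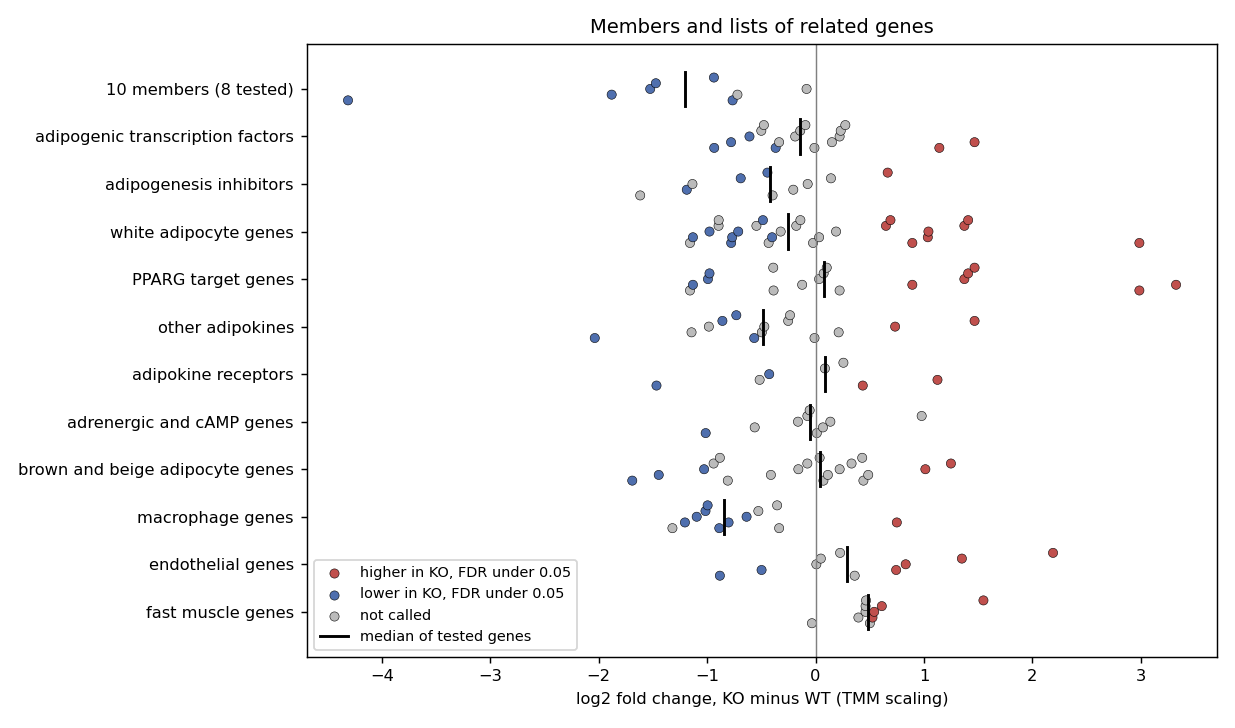
Log2 fold change (KO minus WT, horizontal axis, TMM scaling) of each tested gene in the members and 11 lists, coloured by call, with list medians as black lines. White fat cell genes and PPARγ targets lie on both sides of 0, with medians of -0.25 and 0.07.

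Other secreted factors of fat and the receptors went in both directions. Of 14 adipokines outside the members 4 were lower and 2 higher, with a median of -0.48. Retnla, a resistin relative of fat and of alternatively activated macrophages, had 112, 82 and 85 counts in KO and 243, 215 and 281 in WT, and its groups did not overlap. It fell by 2.04 (edgeR FDR 3.39e-06), and Metrnl by 0.86 (FDR 0.0031), whereas C1qtnf9, an adiponectin relative, rose by 0.73 (FDR 0.000482). Without KO 2 the adipokines had 2 lower and 2 higher genes, and on plain totals 1 lower and 3 higher, with Metrnl at -0.31 (FDR 0.176). Of 7 receptors Adipor2, a receptor of adiponectin, was higher (1.12, FDR 1.36e-05), as was Cdh13, which binds adiponectin at the cell surface (0.44, FDR 0.0181). Aplnr, the apelin receptor, was lower (-1.47, FDR 4.8e-06), as was Cap1, a proposed resistin receptor (-0.43, FDR 0.0195), and the median was 0.09. Cdh13 and Cap1 were not called without KO 2 (FDR 0.143 and 0.271) or WT 1 (FDR 0.0532 and 0.0747), which leaves 1 receptor in each direction, and Cap1 stood at 0.12 on plain totals (FDR 0.476). The leptin receptor Lepr, named outside the rule, had 61, 78 and 69 counts in KO and 39, 36 and 40 in WT, with a scaled difference of 0.26 that was not called (FDR 0.518).

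The adrenergic and brown fat genes around Ucp1 had medians near 0, with brown fat genes called in both directions. Of 11 adrenergic and cAMP genes 9 were tested, and Prkar2b, a regulatory subunit of protein kinase A abundant in fat, was lower (-1.01, edgeR FDR 0.00274), with a list median of -0.05. Without WT 1 the adenosine receptor Adora1 passed as higher (1.98, FDR 0.0371), and on plain totals 4 genes were higher and none lower. Of 22 brown and beige genes 19 were tested, 3 lower and 2 higher, with a median of 0.04, while 17.6% of all genes tested were called in either direction. Dio2, which activates thyroid hormone in brown fat, had 67, 30 and 35 counts in KO and 71, 78 and 79 in WT (-1.45, FDR 0.00359). Ppargc1b, a coactivator of PPARs, was lower (-1.03, FDR 0.0315), as was the proton channel Otop1, named after its values were seen (-1.69, FDR 0.0464). Cpt1b (1.01, FDR 4.11e-05) and Plin5 (1.25, FDR 0.0207), which muscle also expresses, were higher. Ppargc1a and Prdm16, central regulators of the brown program named outside the rule, were not called (0.04 and -0.41, FDR 0.942 and 0.15), and Prdm16 stood at 0.14 on plain totals. The most abundant gene, Cox8b, shared with muscle, had 23.1 CPM in KO and 19.7 CPM in WT (FDR 0.736). Without KO 1 or WT 3 only 1 gene was lower. Leaving out KO 1, KO 2, WT 2 or WT 3 ended the call of Ppargc1b (FDR 0.06, 0.102, 0.0528 and 0.0643), leaving out KO 1, KO 3, WT 1 or WT 3 that of Otop1 (FDR 0.0647, 0.0611, 0.0823 and 0.165), and leaving out KO 2 or WT 3 that of Plin5 (FDR 0.109 and 0.0508). On plain totals 1 gene was lower and 7 higher.

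The genes whose pattern over the 6 libraries was most like that of Pparg were Nans, Loxl2, Fcgr2b, Mical1 and B4galt2. Likeness was the root mean square difference of log2 CPM, centred on each gene's own mean, among 10696 candidates of at least 1 CPM, and it was 0.049, 0.0724, 0.0835, 0.0856 and 0.0857. Nans, an enzyme of sialic acid synthesis, had 107, 115 and 111 counts in KO and 143, 116 and 95 in WT, so it too was lowest among WT libraries in WT 3. Loxl2, a collagen cross-linking enzyme, had 146, 151 and 142 in KO and 192, 145 and 125 in WT. The log2 fold changes of the 5 genes were -0.87 to -0.69. Because the genes were chosen for matching Pparg in these same libraries, their changes and lost calls follow largely from that choice. So does the low WT 3 value of Nans. Fcgr2b, an inhibitory antibody receptor, did not pass the test (FDR 0.0609). None of the other 4 was called without KO 2 (FDR 0.0591 to 0.0976) or on plain totals, where Nans, Loxl2, Mical1 and B4galt2 stood at -0.19, -0.18, -0.14 and -0.31. As KO 1 with KO 3 and WT 2 with WT 3 count as 1 sample each, this likeness has few independent points.

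Genes of other tissues also differed between the groups. All 8 salivary gland genes were higher in KO (7 without KO 2), with a summed level of 515.3 to 551.0 CPM in KO and 41.0 to 44.3 CPM in WT. All 8 Schwann cell genes were lower (7 without KO 2), with 477.9 to 496.0 CPM in KO and 1402 to 1452 CPM in WT. Of 12 fibroblast and fat precursor genes 2 were lower and 1 higher, with 180.2 to 191.6 CPM in KO and 175.7 to 196.5 CPM in WT, and without KO 2, WT 1 or WT 2 only 1 was lower, while without WT 2 Ly6a was higher as well. The counts were 4 lower and 2 higher with 6 separate libraries, and 1 lower and 6 higher on plain totals. The most abundant of them, Ly6a, had 67.2 CPM in KO and 50.3 CPM in WT (0.42, FDR 0.0527), and it was called higher in 7 of 17 alternatives, with 0.97 on plain totals (FDR 2.05e-05). Of 7 sebaceous gland genes, a list used because such glands also express Cidea, Scd3 was lower, with 2, 0 and 0 counts in KO and 25, 8 and 11 in WT (too few counts to test without WT 3). As for Ucp1, only its WT level let it pass the filter, so the call follows in part from that filter, while Awat1 had no count in WT and 2 in KO. Of 5 tested neutrophil and marrow myeloid genes 3 were lower and none higher, with 3.83 to 5.43 CPM in KO and 10.1 to 13.6 CPM in WT, and the markers Mpo, Elane and Prtn3 had at most 16 counts in a library. Whether these differences in transcript level reflect tissue share, or bear on the fat cell genes, was not tested.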

How the data were processed

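The deposited values are unnormalised counts, whole numbers by gene symbol for each of the 6 libraries. Build mm39, HISAT2 (2.1.0) and StringTie (2.1.5) appear in the submitters' processing notes. Their use, the annotation, the strand setting and the handling of shared reads were not given in the sources used here. A count of 2 was 4.68 to 5.06 times as frequent among genes as a count of 1, so both mates of a pair appear to be counted. Counting intervals (95%, exact binomial) use halved counts and cover counting error only.

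Groups came from the titles. Libraries of a group whose median ratio of observed to sampling variance was under 1.1 were summed (KO 1+3, 0.944; WT 2+3, 0.970; other pairs 1.29 to 1.54). The fit used edgeR 4.0.16 in R 4.3.3 with filterByExpr (minimum count 10), TMM and the robust quasi-likelihood test over all genes, Benjamini-Hochberg adjusted. The fit was also run on simulated counts with known changes and 1 fixed spread for all genes. Those counts do not copy the group difference in mitochondrial share, so that run checks the code only. Log2 fold changes are KO minus WT, and standard errors behind the intervals are the change divided by the square root of F. Alternatives included limma-voom (limma 3.58.1) and DESeq2 1.42.0.

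The members, the lists and the tests were chosen with earlier results of these data known. Genes named are the members, up to 4 genes of smallest p in each list, the most abundant gene of cell type lists, Igf2bp2, and the 5 most like Pparg. Genes outside that rule are said to be so, the endothelial, macrophage, muscle, salivary and Schwann cell genes are given as lists, and Retnlg, Awat1, Mpo, Elane and Prtn3 were chosen after their values were seen. Lengths are of the longest coding transcript in GENCODE M21, since the longest Fabp4 transcript keeps an intron.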

Additional observations from a re-analysis of the deposited data

How the results depend on the processing

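Adipoq and Cfd were called lower under all alternatives, as was Ucp1 where tested, though Ucp1 passed the filter through WT alone. No member was called higher except Fabp4 on plain library totals. Library totals with mitochondrial genes, chosen after seeing the data, had the widest effect: 7731 of 14632 tested genes were called. Of these, 386 were lower and 7345 higher, so 4.99% were lower against 48.1% with TMM. Counts of calls in a list on that scale are to be read beside these. On that scale members gave 3 lower and 1 higher, and Pparg was at -0.21. Lower and higher counts there were 1 and 7 for the other transcription factors, 0 and 3 for inhibitors, 1 and 10 for white fat genes, 2 and 11 for PPARγ targets, 1 and 3 for adipokines, 1 and 4 for receptors, 0 and 4 for adrenergic genes and 1 and 7 for brown fat genes. Fabp4 (0.48), Klf2 (0.10), Cap1 (0.12), Gnas (0.38, a gene of the adrenergic list at -0.16 with TMM), Rxra (0.18), Pi16 (0.026, of the precursor list) and Prdm16 (0.14, not called on either scale) changed sign. The DESeq2 Wald test called 1634 genes, 738 of them lower against 1241, with Pparg at -0.76. It left 2 lower transcription factors, 4 lower white fat genes, 1 receptor in each direction and 1 brown fat gene in each direction. With at least 50 counts in 3 libraries 1 brown fat gene was lower. Leaving out 1 library in turn gave 1149 to 2434 called genes (533 to 1187 lower, 616 to 1348 higher), 3 to 6 lower members, and Pparg changes of -0.90 to -0.65. Lower genes then numbered 2 to 3 among transcription factors, 0 to 4 among inhibitors, 4 to 7 among white fat genes, 2 to 3 among adipokines, 1 to 2 among receptors and 1 to 2 among brown fat genes. Higher genes numbered 1 to 2 among receptors, 0 to 1 among adrenergic genes and 1 to 2 among brown fat genes. The lowest counts of members, transcription factors, inhibitors, white fat genes and adipokines came without KO 2. The KO group is then 1 summed sample, assumed to vary like the WT group. Leaving out WT 1 does the same to WT. Calls without KO 2 or WT 1 therefore rest on an assumed spread, and why their number changed was not tested. The replicate numbers did not pair the libraries (correlations of same-numbered deviations -0.03, -0.09 and 0.03). With 6 separate libraries and the replicate block 2941 genes were called, 5 members lower and Pparg at -0.76 (FDR 0.0077), against 3452 genes without the block. Causes were not tested. Depth limits Lep, Adrb3, Retn, Cidea and Ucp1.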
